A study of Homo sapiens with 15 samples.

Results

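The fatty acid binding protein genes are described here through every probe set that carries a single gene symbol among FABP3, FABP4, FABP5, FABP6, FABP7 and PMP2. That gave 13 probe sets of 6 genes, out of 54613 probe sets that are no array controls and 19775 genes with a single symbol. FABP5 had 1 probe set, FABP3, FABP4 and PMP2 had 2 each, and FABP6 and FABP7 had 3 each. These genes were picked because FABP4 and PMP2 had been seen to be lost in the resistant line while other family members were not. Every value of a member in A2780 against CP70, treated or not, is therefore given as a description and carries no test.

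RNA was profiled in 5 groups of 3 biological replicates, 15 arrays in all, of 2 human cell lines. A2780 is an ovarian cancer line sensitive to the DNA crosslinking drug cisplatin, and CP70 (A2780/cp70) is a resistant line derived from it. The first pair of groups was untreated A2780 and untreated CP70, for which the labels name no vehicle. The third group was CP70 given 0.1 µM decitabine, an inhibitor of DNA methyltransferases, for 48 h. The fourth was CP70 given 0.1 µM PXD101 (belinostat), an inhibitor of histone deacetylases, for 48 h. The fifth was CP70 given both drugs at these concentrations, decitabine over 48 h and PXD101 over 24 h of it, so its PXD101 exposure was shorter than in the group given PXD101 alone. RNA was taken from treated cells 96 h after drug removal. A2780 itself was not treated, and whether CP70 was a single clone is not said in the labels.

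Fatty acid binding proteins are small cytosolic proteins, each a barrel of strands around a cavity that holds a long-chain fatty acid or a related lipid. They carry these water-insoluble ligands between membranes, mitochondria, lipid droplets and the nucleus, where several of them pass ligand to the peroxisome proliferator-activated receptors, and some of their genes are in turn targets of those receptors. Each member is best known from a tissue: FABP3 from heart and skeletal muscle, FABP4 from adipocytes, macrophages and capillary endothelium, FABP5 from epidermis and many other tissues, FABP6 from the ileum where it binds bile acids, FABP7 from radial glia and brain, and PMP2 (also called FABP8) from the myelin of Schwann cells. In ovarian cancer, FABP4 is known for its part in the transfer of fatty acids from omental adipocytes to tumour cells.

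FABP4, FABP5 and PMP2 are members of a single gene cluster. In the RefSeq gene order of assembly GRCh38.p14 the cluster runs FABP5, PMP2, FABP9, FABP4 and FABP12, and FABP9 and FABP12 were not analysed here. FABP3, FABP6 and FABP7 each lie elsewhere in the genome.

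Decitabine acts on methylation of cytosine in CG dinucleotides, so the RefSeq start region (250 bases before to 50 bases after the start, GRCh38.p14) is shown for the members that the table held, with every CG in capitals. RBP7, a retinol binding protein of the same wider family, is shown beside them because its levels are set against those of FABP3 further on. FABP3 is at chr1:31373027-31373326 on the minus strand, FABP6 at chr5:160229256-160229555 on the plus strand, FABP7 at chr6:122779466-122779765 on the plus strand and RBP7 at chr1:9996978-9997277 on the plus strand.
FABP3: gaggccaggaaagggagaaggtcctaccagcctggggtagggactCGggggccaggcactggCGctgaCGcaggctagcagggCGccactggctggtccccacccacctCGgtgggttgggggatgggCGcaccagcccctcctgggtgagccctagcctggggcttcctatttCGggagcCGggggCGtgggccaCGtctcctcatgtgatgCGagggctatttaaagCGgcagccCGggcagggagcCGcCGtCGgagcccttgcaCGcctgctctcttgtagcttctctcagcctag
FABP6: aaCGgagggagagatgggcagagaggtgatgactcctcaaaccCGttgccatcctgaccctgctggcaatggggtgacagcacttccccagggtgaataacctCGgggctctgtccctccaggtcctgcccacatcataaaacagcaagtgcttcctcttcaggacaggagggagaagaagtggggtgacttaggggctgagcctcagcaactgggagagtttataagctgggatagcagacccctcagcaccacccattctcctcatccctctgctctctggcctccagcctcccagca
FABP7: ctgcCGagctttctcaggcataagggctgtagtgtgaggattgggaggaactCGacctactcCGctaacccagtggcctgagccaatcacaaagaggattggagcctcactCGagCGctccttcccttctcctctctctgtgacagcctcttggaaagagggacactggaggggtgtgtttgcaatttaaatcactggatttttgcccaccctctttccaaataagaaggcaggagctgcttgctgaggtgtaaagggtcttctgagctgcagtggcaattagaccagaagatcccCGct
RBP7: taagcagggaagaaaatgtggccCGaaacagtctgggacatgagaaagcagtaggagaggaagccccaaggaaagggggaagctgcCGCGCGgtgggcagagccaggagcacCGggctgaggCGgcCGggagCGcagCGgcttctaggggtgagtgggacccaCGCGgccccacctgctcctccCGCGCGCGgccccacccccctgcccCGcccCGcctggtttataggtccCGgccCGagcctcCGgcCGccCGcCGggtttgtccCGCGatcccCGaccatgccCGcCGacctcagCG

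The FABP3 start region held 17 CG in 300 bases and RBP7 held 29, while FABP6 held 3 and FABP7 held 6. Among relatives of the wider family whose regions are not printed, CRABP2 held 20, RBP5 12, FABP1 7, RBP2 4 and FABP2 3. No start region was available here for FABP4, FABP5 or PMP2. Over 35116 start regions of the same length the median was 14 CG, with quartiles of 4 and 28. Among the printed regions, the letters TATAAA were found on either strand in FABP6 and RBP7 (11.5% of all start regions). In the same way CCAAT was found in FABP7 (34.6%) and GGGCGG in RBP7 (45.0%). Methylation was not measured in these files, so these letters describe the windows only.

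Values are log2 array intensities, so a difference of 1 is a doubling. They ran from 2.39 to 14.52 over the table, and the median over probe sets of the mean level was 5.05, with a lower quartile of 3.75. Array medians lay between 5.00 and 5.06. CP70 replicates 1 and 3 correlated with each other at 0.997 over all probe sets and with CP70 replicate 2 at 0.984 to 0.986, while CP70 replicate 2 correlated with the PXD101 arrays at 0.9945 to 0.9955. The actin 3′ minus 5′ signal, a sign of RNA quality, was 0.63 to 0.86 in untreated CP70, 0.34 to 0.38 in A2780 and 0.34 to 0.79 in the treated groups. Member results that rest on untreated CP70 are therefore given also without replicate 2, or without replicates 1 and 3 together, where that changed a call. For most gene lists the counts left by 1 or both of these settings are given too. The ovarian transcription factor WT1 read 3.62 to 3.68 and PAX8 7.08 to 7.30 as group means in the 5 groups.

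FABP4 and PMP2 were bright in A2780 and read below 5.05, the median of all probe sets, on every CP70 array. The first FABP4 probe set, 203980_at, read 12.59, 12.62 and 12.69 in A2780 and 4.01, 3.96 and 4.25 in untreated CP70. Its mean difference was -8.56 ± 0.13 (SE, n = 3 against 3), which is 377-fold lower in CP70, and only 1 of the 54613 probe sets had a larger fall. The second, 235978_at, read 10.78, 10.76 and 10.96 in A2780 and 3.64, 3.34 and 3.65 in untreated CP70, a difference of -7.29 ± 0.12 (SE) or 157-fold. No A2780 array came near a CP70 array on either probe set.

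PMP2 followed the same pattern on both of its probe sets. PMP2 206826_at read 11.53, 11.18 and 11.45 in A2780 against 3.56, 2.82 and 3.15 in untreated CP70, a difference of -8.22 ± 0.16 (SE) or 297-fold. PMP2 235127_at read 10.81, 10.46 and 10.86 against 2.86, 2.93 and 3.18, a difference of -7.72 ± 0.11 (SE) or 211-fold. Over both genes the 12 A2780 readings spanned 10.46 to 12.69 and the 48 CP70 readings, treated or not, spanned 2.82 to 4.25. At such low levels readings hold background as well as signal, so the folds are understated if the true CP70 level was lower. From RNA of a whole culture, fewer expressing cells and less RNA per cell cannot be told apart.

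**Figure D1:**
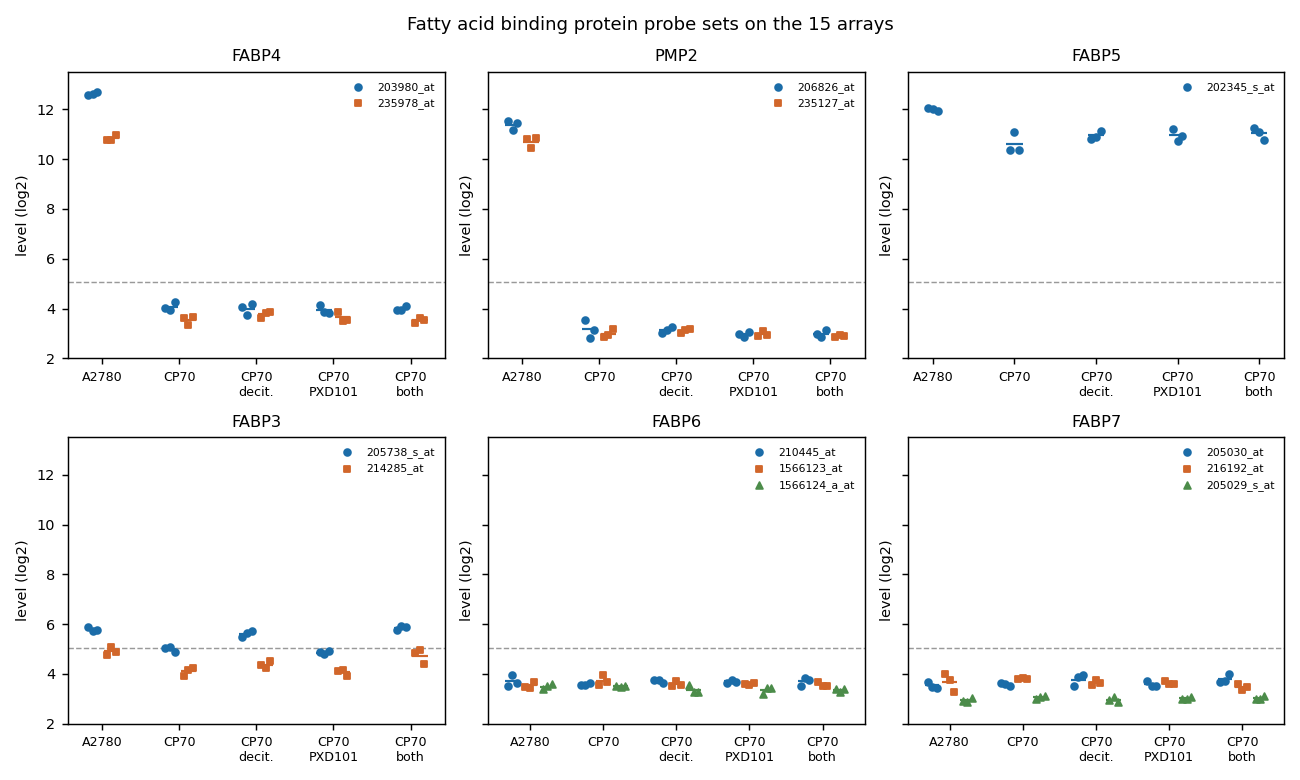
Log2 array intensity of each of the 13 probe sets on the 15 arrays, a panel for each gene, with A2780 and the 4 CP70 groups along the horizontal axis and a point for each array. FABP4 and PMP2 lie at 10.46 to 12.69 in A2780 and at 2.82 to 4.25 in all CP70 groups, FABP5 stays above 10.3 throughout, and FABP6 and FABP7 stay low in every group.

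FABP5, the third measured gene of the cluster, stayed high in both lines and was lower in CP70. It read 12.07, 12.01 and 11.93 in A2780, 10.36, 11.11 and 10.39 in untreated CP70, and 10.74 to 11.24 on the 9 treated arrays. Every CP70 array lay below every A2780 array. The difference between the untreated lines was -1.39 ± 0.18 (SE), 2.61-fold, and it was -0.90 with CP70 replicate 2 as the only untreated CP70 array. The 3 treated groups lay closer to A2780, at -1.05 with decitabine, -1.04 with PXD101 and -0.97 with both drugs. Its single probe set can match more than one transcript by its design suffix, and FABP5 has near-identical pseudogene copies, so how much of this signal came from FABP5 itself is uncertain.

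FABP3, the heart and muscle form, was read at a modest level and was lower in CP70 by less than 1 log2 unit. FABP3 205738_s_at read 5.89, 5.72 and 5.75 in A2780 and 5.06, 5.10 and 4.90 in untreated CP70, a difference of -0.77 ± 0.09 (SE) or 1.70-fold. FABP3 214285_at read 4.77, 5.07 and 4.88 in A2780 and 3.93, 4.17 and 4.25 in untreated CP70, a difference of -0.79 ± 0.14 (SE) or 1.73-fold. The groups did not overlap on either probe set. FABP3 214285_at read below 5.05, the median of all probe sets, on 14 of the 15 arrays, and FABP3 205738_s_at on 4. Such readings hold background as well as signal.

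FABP6 and FABP7 read low everywhere. The 45 readings of the 3 FABP6 probe sets spanned 3.18 to 3.96, and those of the 3 FABP7 probe sets spanned 2.855 to 4.004. All 6 probe sets lay below 5.05, the median of all probe sets, on every array. Their differences between the untreated lines ran from -0.12 (FABP6 210445_at) to 0.20 (FABP6 1566123_at), and A2780 and CP70 arrays overlapped on all 6. Without CP70 replicates 1 and 3, FABP6 1566123_at differed by 0.42. At these readings an expressed but faint transcript is not told apart from background.

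Over the 13 probe sets the median difference between untreated CP70 and A2780 was -0.77, against -0.00 over all 54613, and 7 of 13 had CP70 arrays wholly below the A2780 arrays. Over all probe sets 16.9% did so and 24.0% passed an adjusted p of 0.05 in either direction (limma). The members were chosen on this comparison, so nothing is read from these shares.

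The genes around the cluster were then taken in RefSeq order, the 10 protein-coding genes on each side, of which 18 had a probe set. They were no members, so they were tested in the limma fit over all probe sets, each gene by its brightest probe set. Of the 18, 7 were lower and 4 higher in untreated CP70, against 14.5% lower and 15.4% higher over all genes. The median difference was -0.23, against 0.01 over all genes. PAG1, a membrane adaptor that recruits the kinase CSK, is the next gene outward from FABP5. It read 9.22, 8.95 and 8.91 in A2780 and 3.87, 3.73 and 4.46 in untreated CP70, and the groups were far apart. Its difference was -5.01 ± 0.23 (SE; limma adjusted p 1.46e-10), and all 3 PAG1 probe sets were lower, by -5.01 to -4.15.

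Beyond PAG1 the difference was smaller. ZNF704, the next gene out, read 7.75, 7.62 and 7.51 in A2780 and 5.503, 5.940 and 5.040 in untreated CP70. It was lower by -2.13 (limma adjusted p 7.57e-07), with 2 of its 6 probe sets lower and the other 4 not called. After it came ZBTB10 (0.48, not called) and TPD52 (0.43, limma adjusted p under the threshold with all arrays but lost when any A2780 array, CP70 replicate 1 or CP70 replicate 3 was left out). Their probe sets disagreed: 1 of 7 of ZBTB10 was called lower (-0.99), and of 5 of TPD52 1 was called higher and 1 lower (-0.29). Further along the same side, MRPS28 (-0.70), STMN2 (0.11) and IL7 (0.21) were not called. HEY1, a transcriptional repressor downstream of Notch, was higher by 2.71 and ZC2HC1A by 1.56. Both directions were thus called on that side of the cluster. Without CP70 replicate 2, MRPS28 was lower by -1.10 (adjusted p 5.6e-05) and ZBTB10 higher by 0.72 (0.031).

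On the FABP12 side the nearest measured genes differed less than PAG1 did. IMPA1, an inositol monophosphatase, was called lower by -0.67, and ZFAND1 (-0.06) was not called. SLC10A5, which lies between them, had no probe set used here. CHMP4C differed by -0.75 and E2F5 by -0.50, and both calls were lost on leaving out any A2780 array or CP70 replicate 2. The endosomal sorting nexin SNX16 was lower by -2.49 (limma adjusted p 1.89e-05) on the brighter of 2 probe sets, both of which were lower. RALYL was lower by -1.71, LRRCC1 (0.07) and RBIS (-0.39) were not called by their brightest probe sets, and CA13, a carbonic anhydrase, was higher by 2.69. The other 2 of the 3 RBIS probe sets were lower (-1.24 and -0.91), and the brightest was called too without CP70 replicate 2 (-0.56). Over the 18 neighbours, 5 were higher and 7 lower without CP70 replicate 2, and 3 higher and 7 lower without CP70 replicates 1 and 3. DNA copy number was not measured in these files, and its part in these levels was not tested.

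**Figure D2:**
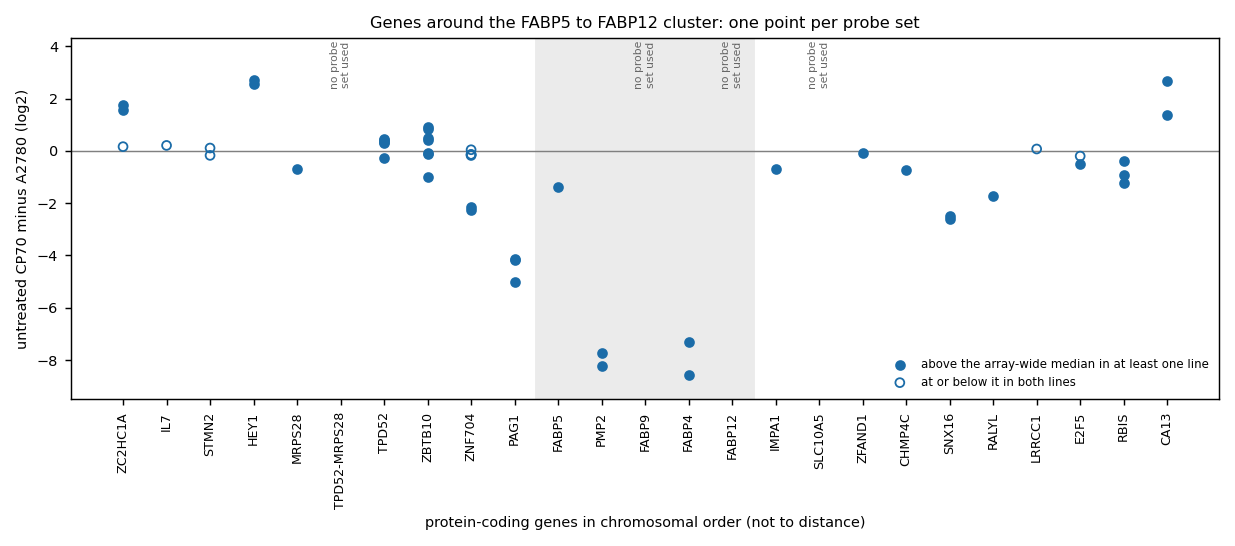
Difference in log2 level between untreated CP70 and A2780 (vertical axis) for the probe sets of the genes around the fatty acid binding protein cluster, placed in gene order along the horizontal axis, a point for each probe set, filled where it read above the array-wide median in at least one line. FABP4 and PMP2 lie between -8.56 and -7.29, PAG1 between -5.01 and -4.15, and FABP5 between them in the order at -1.39, while HEY1 and CA13 lie above 0.

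The treated groups show whether the members returned toward their A2780 level when CP70 was given the drugs. These comparisons were tested in the same fit, with p-values adjusted over all 54613 probe sets. They share the untreated CP70 arrays with one another and with the comparison that chose the members. Of the 13 probe sets, 1 was higher with decitabine alone, 0 changed with PXD101 alone and 2 were higher with both drugs, all of FABP3. Over all probe sets the limma test called 5.56%, 5.92% and 7.02% in those comparisons, with 2.91% higher for decitabine and 3.95% higher for both drugs. No member was called lower. For PXD101 alone, 0 of the 13 had an unadjusted p under 0.05, and rank product also called 0. The PXD101 calls over all probe sets turned on single arrays. They fell to 0 when CP70 replicate 1, CP70 replicate 3 or any PXD101 array was left out. Without CP70 replicate 2 they rose from 1638 higher and 1597 lower to 6151 higher and 4822 lower.

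No treatment gave a called change of FABP4 or PMP2. FABP4 203980_at read 4.07, 3.74 and 4.19 with decitabine, 4.15, 3.84 and 3.83 with PXD101, and 3.93, 3.92 and 4.11 with both. The arrays of each treatment overlapped untreated CP70. The changes were -0.07 (95% interval -0.34 to 0.20), -0.13 (-0.40 to 0.14) and -0.09 (-0.36 to 0.18), with limma adjusted p of 0.829, 0.621 and 0.791. FABP4 235978_at changed by 0.24 (-0.02 to 0.49), 0.10 (-0.16 to 0.36) and -0.02 (-0.28 to 0.24).

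PMP2 206826_at read 3.03, 3.16 and 3.24 with decitabine, 2.99, 2.84 and 3.06 with PXD101 and 2.98, 2.84 and 3.16 with both, again within the span of untreated CP70. Its changes were -0.03 (95% interval -0.36 to 0.30), -0.21 (-0.54 to 0.12) and -0.18 (-0.51 to 0.15). PMP2 235127_at changed by 0.11 (-0.14 to 0.35), -0.02 (-0.27 to 0.22) and -0.08 (-0.33 to 0.16). Over the 4 probe sets of these 2 genes, the highest bound of any interval was 0.49 with decitabine, 0.36 with PXD101 and 0.24 with both drugs. Against A2780, the 3 treated groups still differed by -8.69 to -8.63 on FABP4 203980_at and by -8.42 to -8.25 on PMP2 206826_at. PAG1, beside the cluster, was called on 0 of 3 probe sets in each of the 3 treatments, with changes between -0.20 and 0.44.

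FABP5 was not called in any treatment with all arrays, and its changes turned on 1 untreated library. Its 3 decitabine arrays read 10.82, 10.91 and 11.13, the PXD101 arrays 11.22, 10.74 and 10.95, and the arrays with both drugs 11.24, 11.09 and 10.78. In every treatment these overlapped untreated CP70, because CP70 replicate 2 read 11.11 and the other two 10.36 and 10.39. The changes were 0.33 (limma adjusted p 0.358), 0.35 (0.286) and 0.42 (0.209; 95% interval 0.03 to 0.81). Without CP70 replicate 2 they were 0.58 (adjusted p 0.0144), 0.59 (0.00905) and 0.66 (0.00537), and without CP70 replicates 1 and 3 they were -0.16, -0.14 and -0.07. The part of the difference among these libraries in the result was not tested.

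FABP3 was higher in both groups that received decitabine. FABP3 205738_s_at, at 5.06, 5.10 and 4.90 in untreated CP70, read 5.48, 5.66 and 5.71 with decitabine, 4.88, 4.78 and 4.91 with PXD101 and 5.76, 5.91 and 5.90 with both drugs. All decitabine arrays lay above all untreated arrays, and the arrays with both drugs lay above those with decitabine. The change was 0.60 ± 0.09 (SE) with decitabine (95% interval 0.40 to 0.80, limma adjusted p 0.00148) and 0.84 ± 0.09 with both (0.64 to 1.04, adjusted p 5.01e-05), higher in 3 of 3 arrays each. With PXD101 alone it was -0.16 (-0.36 to 0.04, adjusted p 0.337). The decitabine call was lost when only the arrays compared entered the fit (adjusted p 0.0510) and without CP70 replicates 1 and 3 (0.0626), and rank product called neither change.

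The second FABP3 probe set moved less. FABP3 214285_at, at 3.93, 4.17 and 4.25 in untreated CP70, read 4.36, 4.24 and 4.51 with decitabine, 4.14, 4.16 and 3.93 with PXD101 and 4.84, 4.95 and 4.41 with both drugs. The decitabine arrays overlapped untreated CP70 by 1 reading and the arrays with both drugs did not. With decitabine the change was 0.25 ± 0.14 (SE; limma adjusted p 0.365), so only 1 of the 2 probe sets was called. With both drugs it was 0.61 ± 0.14 (95% interval 0.31 to 0.91, adjusted p 0.0147). That call was lost without CP70 replicate 1 (adjusted p 0.0821), without replicate 1 (0.0661) or 2 (0.0898) of the group given both drugs, without CP70 replicates 1 and 3 (0.173) and with only the arrays compared (0.103).

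Adding decitabine to PXD101 gave the plainest FABP3 difference. With both drugs against PXD101 alone, FABP3 205738_s_at was higher by 1.00 ± 0.09 (SE; limma adjusted p 7.52e-06) and FABP3 214285_at by 0.66 ± 0.14 (0.00950), the only 2 of 13 member probe sets called, both higher, where 7.28% of all probe sets were called and 3.94% were higher. This comparison uses no untreated array. The second of the calls was lost without replicate 2 of the group given both drugs (0.0673) and without PXD101 replicate 3 (0.05004). Exposure to PXD101 was 48 h in one of these groups and 24 h in the other.

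Adding PXD101 to decitabine gave 0 calls among the 13 (limma), where 0.00366% of all probe sets were called. At an unadjusted p under 0.05 there were 3, both of FABP3 (0.24, 95% interval 0.04 to 0.44, and 0.36, 0.06 to 0.66; adjusted p 0.857 each) and FABP4 235978_at (-0.26). The interaction of the drugs also gave 0 calls (limma), with 1 at an unadjusted p under 0.05 and 0.0146% of all probe sets called. It was 0.40 ± 0.13 (SE; adjusted p 0.220) for FABP3 205738_s_at and 0.40 ± 0.20 (0.346) for FABP3 214285_at. With both drugs FABP3 overlapped A2780 on both probe sets, at 0.07 and -0.18 from it, while with decitabine alone it was -0.17 and -0.54 from it.

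FABP3 205738_s_at fell in the order both drugs, A2780, decitabine, untreated CP70, PXD101. Neighbours in that order did not overlap except both drugs with A2780, and PXD101 with untreated CP70. For FABP4, PMP2 and FABP5 A2780 stood first and the 4 CP70 groups overlapped one another, apart from narrow gaps between the decitabine group and the group given both drugs on FABP4 235978_at and PMP2 235127_at.

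**Figure D3:**
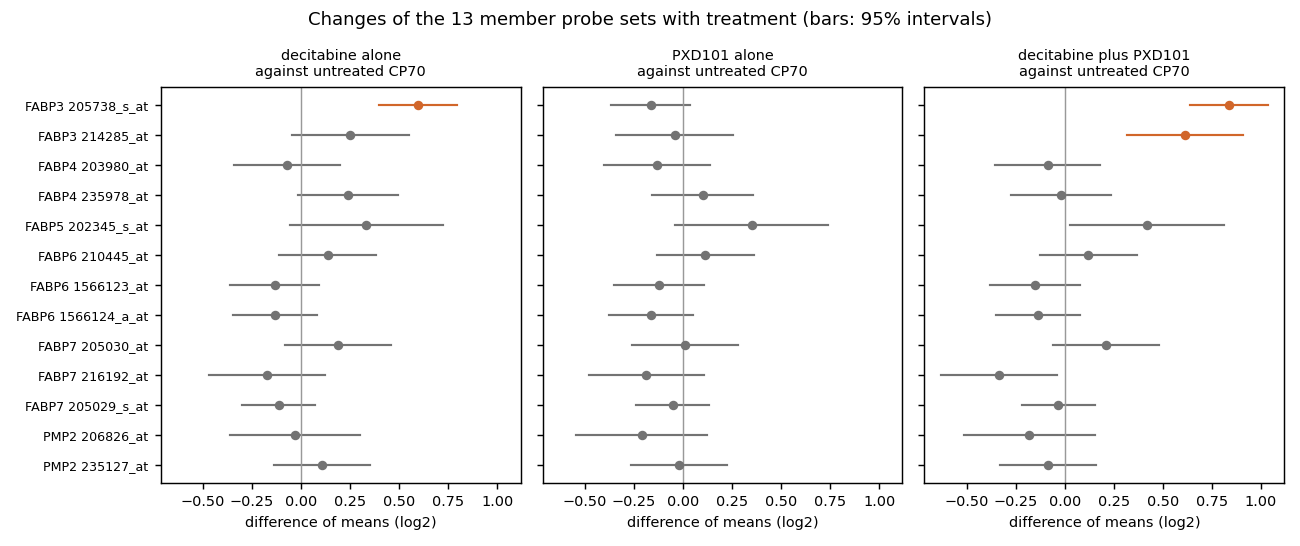
Change in log2 level against untreated CP70 (horizontal axis) with its 95% interval for each of the 13 probe sets, in a panel for each treatment, with calls at an adjusted p under 0.05 in orange. The orange points are FABP3 205738_s_at with decitabine (0.60) and both FABP3 probe sets with both drugs (0.84 and 0.61), while the FABP4 and PMP2 intervals all include 0.

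Changes of the 6 FABP6 and FABP7 probe sets were small. The largest in size, -0.34 for FABP7 216192_at with both drugs (95% interval -0.63 to -0.04), had a limma adjusted p of 0.177. Without FABP3, the lowest adjusted p over the other 11 probe sets was 0.306 with decitabine, 0.286 with PXD101 and 0.177 with both drugs.

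Other carriers of the family were FABP1, FABP2, CRABP2, RBP2, RBP5 and RBP7. FABP9, FABP12 and CRABP1 were not analysed here. RBP7 read 4.37, 4.76 and 4.67 in A2780, 4.15, 4.18 and 4.04 in untreated CP70, 5.10, 4.98 and 5.61 with decitabine, 3.99, 3.61 and 3.81 with PXD101 and 5.22, 5.59 and 5.38 with both. The decitabine arrays stood above all arrays without that drug, as they did among CP70 arrays for FABP3 205738_s_at. RBP7 was higher by 1.11 with decitabine (limma adjusted p 0.000689) and by 1.27 with both drugs (0.000149), and differed by -0.32 with PXD101 (0.259). Between the lines it differed by -0.47 (adjusted p 0.0426), a call that was lost on leaving out A2780 replicate 2 or 3 or CP70 replicate 1 or 3.

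CRABP2, a retinoic acid carrier, was bright in all groups and rose with each treatment, including PXD101. It read 10.15, 10.96 and 10.41 in untreated CP70, and all 9 treated arrays lay between 11.002 and 11.55. It rose by 0.76 with decitabine, 0.76 with PXD101 and 0.87 with both (limma adjusted p 0.0327, 0.0381 and 0.0132). Each of these calls was lost without CP70 replicate 1 or 3. FABP1, FABP2, RBP2 and RBP5 were not called in any comparison by their brightest probe set with all arrays, although FABP1, the liver form, had a dimmer probe set that was lower in CP70 (-0.38, adjusted p 0.0201) while its brighter one differed by 0.29 (0.0509; called at 0.35 without CP70 replicate 2). Of these 6 genes, 2 were higher and 0 lower with decitabine, where 4.38% and 2.66% of all genes were.

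**Figure D4:**
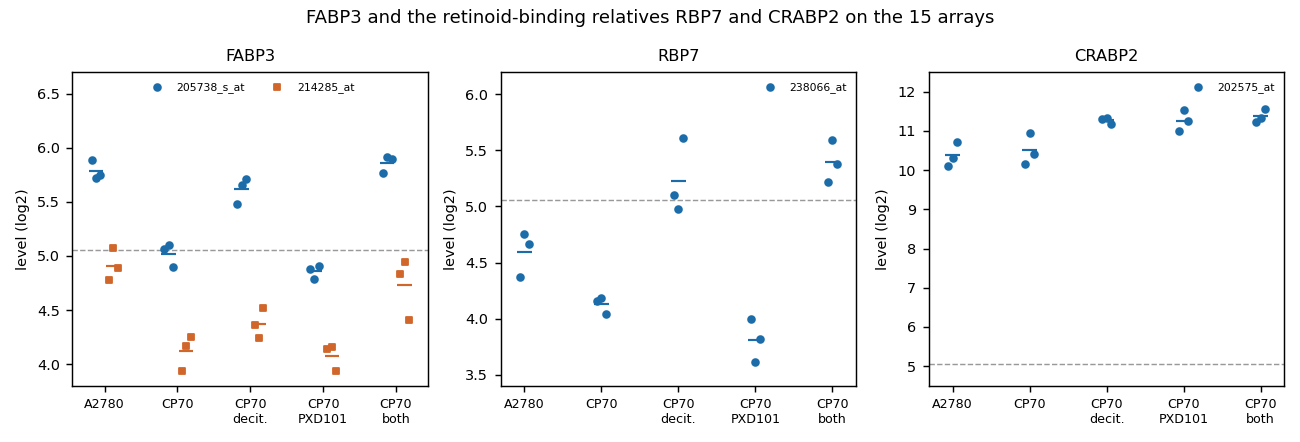
Log2 array intensity of FABP3, RBP7 and CRABP2 on the 15 arrays, by group, with a point for each array. FABP3 205738_s_at and RBP7 are higher in both groups that received decitabine and not with PXD101 alone, while CRABP2 is at 11.002 or above in all 3 treated groups.

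Profiles most like FABP4 and PMP2 were found by the root mean square difference over the 15 arrays after each profile was centred on its own mean, among the brightest probe sets of single-symbol genes. PMP2 and FABP4 were each other's nearest, at 0.24 log2 units. For FABP4 the next were NRK (0.28), DLX6-AS1 (0.39), OLFM3 (0.70) and LIN28A (0.74). For PMP2 they were DLX6-AS1 and NRK (0.30 each), OLFM3 (0.61) and LIN28A (0.65). All had Pearson r of 0.991 to 0.998 with the gene in question, a description that mostly reflects 3 high A2780 arrays against 12 low CP70 arrays. No member other than FABP4 and PMP2 had group means spanning 2 log2 units.

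The receptors that these proteins deliver ligand to, and the factors beside them, were next. Over all genes, 15.4% were higher and 14.5% lower in untreated CP70, with a median of 0.01. Of 10 PPAR, RXR and related factors, 4 were higher and 1 lower, with a median of 0.12. These counts were 3 and 1 without CP70 replicate 2, and 3 and 0 without CP70 replicates 1 and 3. PPARG, the receptor that drives FABP4 in adipocytes, was higher by 1.01 (limma adjusted p 1.1e-05), from a mean of 4.61 in A2780 to 5.62. PPARD was higher by 0.39 (0.037), a call lost without any single A2780 array or CP70 replicate 2. PPARA was not called between the lines (means of 6.84 and 6.88) and was lower by -0.82 with both drugs (0.00097). PPARA was called lower with decitabine alone as well, by -0.49, and without CP70 replicates 1 and 3 that change was -0.37. It was the only 1 of the 10 called with decitabine, where 4.38% of all genes were higher and 2.66% lower.

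Genes of fatty acid uptake and activation were changed in both directions between the lines. Against 15.4% higher and 14.5% lower over all genes, 6 of 19 were higher and 3 lower in untreated CP70, with a median of 0.05. These counts were 8 and 4 without CP70 replicate 2, and 5 and 1 without CP70 replicates 1 and 3. The fatty acid translocase CD36 rose from 5.00 to 9.07, by 4.07 (limma adjusted p 5.5e-10). Higher too were the transporters SLC27A6 (2.97) and SLC27A2 (2.82) and the mitochondrial gatekeeper CPT1A (1.66), while the carnitine carrier SLC25A20 was lower by -1.09. With decitabine 1 of the 19 was higher, SLC27A3 (0.64), and 3 were lower, CD36 (-0.73), CPT1A (-0.69) and SLC27A2 (-0.52). The list median was -0.02 against 0.02 over all genes, of which 4.38% were higher and 2.66% lower. That list held 4 higher and 4 lower without CP70 replicate 2, and 0 in either direction without CP70 replicates 1 and 3, where CPT1A had an adjusted p of 0.0962.

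Lipid droplet and lipolysis genes, which act downstream of fatty acid carriage, were mostly not called. Against 15.4% higher and 14.5% lower over all genes, 1 of 17 was higher and 2 lower in untreated CP70, with a median of -0.14. These were DGAT2 (1.42), PNPLA3 (-0.71) and HILPDA (-0.80). Without CP70 replicate 2 the counts were 2 and 3, and without CP70 replicates 1 and 3 they were 1 and 1, with PNPLA3 and HILPDA no longer called. Decitabine gave 3 higher and 0 lower, where 4.38% and 2.66% of all genes were, with a median of 0.12 against 0.02 and a median size of change of 0.27 against 0.14, among them G0S2, an inhibitor of the lipase ATGL, by 1.01 (limma adjusted p 0.010). The decitabine count was 6 higher and 2 lower without CP70 replicate 2, and 1 higher and 0 lower without CP70 replicates 1 and 3.

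Markers of the cell types in which the members are best known were counted in the same way. For all the marker lists that follow, the shares over all genes in untreated CP70 were 15.4% higher and 14.5% lower. Among 12 adipocyte markers 2 were higher (CD36 and LPL) and 0 lower in untreated CP70, with a median of 0.08. The counts were 4 and 0 without CP70 replicate 2, through CIDEC and GPD1, and 1 and 0 without CP70 replicates 1 and 3, where LPL was lost. The adipocyte hormone gene ADIPOQ read 3.08 in A2780 and 3.35 in untreated CP70. The list's summed level was 8.62 to 8.85 in A2780 and 9.82 to 9.997 in untreated CP70 (log2 of the sum). That sum is of unlogged intensities, so the brightest genes, CD36 among them in CP70, weigh most in it. The list's median level was 4.70 to 4.87 in A2780 and 4.87 to 5.36 in untreated CP70. Of 8 endothelial and 8 leukocyte markers 0 were called in either direction between the lines (limma); CDH5 read 3.51 in both lines and PTPRC 3.81 and 3.95. Of 7 Schwann cell and myelin markers, MBP was higher by 2.11 and ERBB3 lower by -1.58 (list median -0.07), and the Schwann cell factor SOX10 read 5.86 and 5.68. Without CP70 replicate 2, 2 of these 7 were higher and 2 lower. With decitabine, 4.38% of all genes were higher and 2.66% lower. Among the adipocyte markers 1 was higher (CFD) and 2 lower (LPL and CD36), and of the endothelial markers 0 were called. Of the leukocyte markers 1 was higher (TYROBP, by 1.30), and of the Schwann cell and myelin markers 1 (MBP, by 0.87). Without CP70 replicates 1 and 3 these changes were 1.22 for TYROBP and 0.39 for MBP.

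Of 11 neural progenitor markers, which bear on FABP7, 1 was higher and 4 lower in untreated CP70, with a median of 0.05; without CP70 replicates 1 and 3 it was 1 and 3, and without CP70 replicate 2 it was 2 and 4. POU3F2, a factor known to bind the FABP7 gene, was lower by -3.31 (limma adjusted p 1.5e-10), NES by -3.59, and HES1 was higher by 3.08. FABP7 itself read low in both lines. Of 7 heart and muscle markers, known beside FABP3, 0 were higher and 2 lower in untreated CP70 (ACTC1 and TNNI3), the second count falling to 1 without CP70 replicates 1 and 3. In that list 3 were higher and 0 lower with decitabine, where 4.38% of all genes were higher: CKM (1.25), TNNI3 (0.83) and ACTC1 (0.53), where the call of ACTC1 needed CP70 replicates 1 and 3 and decitabine replicates 1 and 2. FGF19, of the 6 ileal bile acid genes listed with FABP6, read 4.38 in A2780 and 6.79 in untreated CP70, higher by 2.41. It was the only one of the 6 called between the lines. With decitabine FGF19 changed by -1.63, the only call among the 6, where 2.66% of all genes were lower. Without CP70 replicates 1 and 3 that change was -0.42. With PXD101 alone and with both drugs 1 of the 6 was lower, against 797 and 710 of all 19775 genes. Of 10 fibroblast markers 2 were higher and 5 lower in untreated CP70 (median -0.29), and of 12 epithelial and ovarian cancer markers 2 were higher and 0 lower (median 0.12). Without CP70 replicate 2 these counts between the lines stayed at 2 and 5, and at 2 and 0. With decitabine, 3 of the fibroblast markers were higher and 1 lower, and 4 of the epithelial markers were higher and 0 lower. Of the 11 neural progenitor markers 1 was higher and 0 lower with that drug. Over all genes 4.38% were higher and 2.66% lower with decitabine. Without CP70 replicate 2 the decitabine counts were 3 and 3 for the fibroblast markers and 4 and 0 for the epithelial markers. Without CP70 replicates 1 and 3, the decitabine change was 0.68 instead of 1.48 for ACTA2 and 0.27 instead of 0.70 for THY1. It was little changed for COL3A1 (-0.53 instead of -0.47) and EPCAM (0.72 instead of 0.71).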

How the data were processed

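Total RNA from 15 samples was amplified, biotin-labelled and hybridised to 1-colour Affymetrix expression arrays, per the labels' protocols. The deposited values are log2 probe-set summaries made by the authors with R 2.10.1 and the affy package, per the submitters' processing notes. The background correction and normalization were not given in any source used, and the scale was read from the values. No scanner files or detection calls were used here, so the number of arrays limits precision and low readings cannot be sorted into detected or not.

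The 62 control probe sets were left out. Symbols came from the platform annotation: 41097 probe sets had a single symbol, 1801 several and 11777 none here, and 41043 of the first were matched to current RefSeq names by Entrez number. Promoters came from RefSeq.

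Group means of all 54613 probe sets were fitted together over the 15 arrays with limma 3.58.1 (R 4.3.3), moderated by eBayes, with Benjamini-Hochberg adjustment over all probe sets and a threshold of 0.05. The design text names the rank product method with an FDR threshold; it was run as an alternative with 100 permutations and 5 percent false positives, because it gives no standard errors. Both were tested on simulated data with independent noise and no deviating array, so that test does not bear on the effect of CP70 replicate 2. Replicates are called biological in the labels, but nothing says that they were separate cultures started apart, so p-values measure the spread between these samples. Alternatives were the replicate block, other sets of arrays or probe sets, repeated quantile normalization, median centring, array weights, a minimum change of 2-fold, and leaving out arrays.

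The members, the 14 gene lists (146 of 165 genes measured) and the tests were chosen with earlier results of these data known. Genes named were all member probe sets, all measured neighbours and other family members, PPARG, PPARA and PPARD, up to 4 called genes with the smallest p per list and comparison, and the 5 nearest profiles of each member whose group means spanned 2 log2 units. WT1, PAX8, ADIPOQ, CDH5, PTPRC and SOX10 were named beyond that rule as defining markers, and CIDEC, GPD1 and SLC25A20 beside list counts, all after their values were seen.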

Additional observations from a re-analysis of the deposited data

How the results depend on the processing

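The loss of FABP4 and PMP2 between the lines kept its direction under each alternative run, as did the lower FABP5 and FABP3. Without CP70 replicates 1 and 3 the differences moved to -7.49 for FABP4 235978_at, -8.57 for PMP2 206826_at, -0.90 for FABP5 and 0.42 for FABP6 1566123_at. Repeated quantile normalization and median centring moved no count of member calls. The calls among the 13 probe sets did change with other choices. With decitabine the count was 1, and it was 0 with only the arrays compared, with a minimum change of 2-fold, without CP70 replicates 1 and 3 and by rank product. It was 2 with array weights, and 1 to 2 on leaving out single arrays, where CP70 replicate 2 gave the 2. With PXD101 the count was 0, and 1 with array weights, and 0 to 1 on leaving out single arrays, again through CP70 replicate 2. The added calls were FABP5 in each case. With both drugs the count was 2. It was 1 with only the arrays compared, with the brightest probe set of each gene, with probe sets above the median level and without CP70 replicates 1 and 3. It was 4 with array weights, 0 with the 2-fold minimum and by rank product, and 1 to 3 on leaving out single arrays. For both drugs against PXD101 alone the count was 2, and 1 with the brightest or the above-median probe sets, 0 with the 2-fold minimum and 1 to 2 on leaving out single arrays. The interaction had 0, and 1 with array weights, FABP3 205738_s_at. The brightest and above-median settings leave FABP3 214285_at out of the fit; for the other settings the cause was not tested. Array weights called many more probe sets in most comparisons, 3709 higher and 3939 lower in the interaction against 8 and 0. The lowest weight was that of CP70 replicate 2 (0.24). Leaving out that array gave 3416 higher and 3775 lower in the interaction.

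Of the 146 list genes 27 were called with decitabine. The count was 12 to 47 on leaving out single arrays, 14 without CP70 replicate 1, 47 without replicate 2, 12 without replicate 3, and 13 and 16 without decitabine replicates 2 and 3. It was 10 without CP70 replicates 1 and 3.

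Replicate numbers did not pair the arrays. Deviations from the group mean of same-numbered arrays correlated between -0.32 and 0.38, and over 0.1 in 5 of 30 pairs. With the replicate block the member calls were 1 with decitabine, 0 with PXD101 and 2 with both drugs, as without it, and 25 list genes were called with decitabine.

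Signal over background limits FABP6, FABP7 and, in CP70, FABP4 and PMP2, which read below the median of all probe sets, where changes are compressed. The same limit holds for FABP3, as 214285_at read below that median on 14 of the 15 arrays and 205738_s_at on 4. The spread among the untreated CP70 arrays limits the FABP5 and list counts above.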
